A study of Mus musculus with 6 samples.

Results

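The proteasome genes of CMT93 spheroids were examined as a group of 47 rows of a count table of 23399 genes. They were the rows whose symbol starts with Psm, a letter from a to g and a digit. The rule left out 3 rows named as pseudogenes and the immunoproteasome genes, of which Psmb9 and Psmb10 had rows. By role, the 47 members were 7 genes of the alpha ring, 8 of the beta ring, 6 of the ATPase ring, 11 other genes of the regulatory particle, 7 assembly chaperones, 6 genes of alternative caps and their relatives including the inhibitor Psmf1, and 2 genes that match by name alone. After the filter on low counts 46 were tested, and Psmb11, the beta subunit of the thymus, was not, with 0 to 1 counts per library with palmitate and 0 to 4 with vehicle.

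The palmitate group was 3 libraries of wild-type CMT93 cells, an established mouse colorectal carcinoma line, that received 200 µM palmitate, a saturated fatty acid, bound to bovine serum albumin. The vehicle group was 3 libraries of the same cells with ethanol and albumin alone. Both groups were kept for 1 week in monolayer and then for 5 days as spheroids over soft agar with Matrigel. The model is a single line. No label tells whether libraries of a group came from separate cultures, so the p-values rest on library-to-library spread that may be technical. The libraries held 22516639 to 22852940 counts with palmitate and 18898896 to 21851987 with vehicle. Of 12 markers chosen for colorectal epithelium, 11 had rows, and their summed level was 7097 to 7206 CPM (TMM-normalised counts scaled to library size) with palmitate and 7754 to 7816 CPM with vehicle. Of the 10 that passed the filter 8 were called, Cldn3, Cdx2, Lgr5 and Krt19 higher and Krt18, Krt8, Cldn4 and Cdh1 lower. Of all tested genes 52.8% were called, 27.4% higher and 25.4% lower. Cdx2 was low, at 2.46 ± 0.365 CPM with palmitate and 1.72 ± 0.276 CPM with vehicle (SD, n = 3 each). In the authors' deposited table its q-value was 0.126. The differentiation marker Krt20 was not tested, at 0.22 to 0.268 CPM with palmitate and 0.0462 to 0.211 CPM with vehicle. Markers of leukocytes summed to 9.72 to 10.9 CPM with palmitate and 7.42 to 9.16 CPM with vehicle over 5 of 8 genes. Nearly all of it came from Cd68, which was called higher (log2 fold change 0.44). Ptprc, Itgam, Lyz2 and Csf1r were each under 1 CPM in every library. Of these Ptprc was called lower (log2 fold change -1.62) and the others were not tested. Markers of fibroblasts and endothelium summed to 3.49 to 4.48 CPM with palmitate and 7.42 to 7.95 CPM with vehicle over 7 of 8 genes. Acta2 (log2 fold change -1.46), Col1a1 (-1.03) and Cdh5 (-0.60) were called lower. The others were not tested, among them Pdgfra with 2 counts in each palmitate library and 0 in each vehicle library. The part of these markers in the results was not tested. In bulk RNA a change in the kinds of cells and a change in RNA per cell cannot be told apart.

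The proteasome is the main protease of the cytosol and nucleus and breaks down proteins that carry ubiquitin chains. Its 20S core is a barrel of stacked rings, in which the outer alpha rings gate the entrance and the inner beta rings hold the caspase-like, trypsin-like and chymotrypsin-like sites of Psmb6, Psmb7 and Psmb5. The 19S regulatory particle sits on the barrel's ends, binds ubiquitin, removes it through Psmd14 and unfolds the substrate with a ring of ATPases. When proteasomes are short, the transcription factor NRF1, made by Nfe2l1, raises the genes of both particles together through antioxidant response elements in their promoters.

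Promoters of 3 subunits are shown, chosen from the 6 members found to hold the core of that element in the windows searched. The match begins 247 bases before the start in Psmd12, 47 in Psmb5 and 9 in Psmb6. Psmd12 and Psmb6 were called higher with palmitate and Psmb5 was not called, a difference between genes that was not tested. Of the members that hold it and are not shown, Psmc6 and Psme4 were called higher and Psmd9 was not called. The stretches are the 250 bases before the gene start, from RefSeq on build GRCm38.p6, which is not the mm39 build of the counts. Capitals mark the match to TGACNNNGC on either strand.
Psmd12, chr11:107479278-107479527, plus strand: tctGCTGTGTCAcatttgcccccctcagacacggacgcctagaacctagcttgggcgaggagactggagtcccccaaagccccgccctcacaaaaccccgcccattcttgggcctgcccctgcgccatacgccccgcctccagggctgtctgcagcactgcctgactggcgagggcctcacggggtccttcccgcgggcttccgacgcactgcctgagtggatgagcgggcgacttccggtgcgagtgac
Psmb6, chr11:70525107-70525356, plus strand: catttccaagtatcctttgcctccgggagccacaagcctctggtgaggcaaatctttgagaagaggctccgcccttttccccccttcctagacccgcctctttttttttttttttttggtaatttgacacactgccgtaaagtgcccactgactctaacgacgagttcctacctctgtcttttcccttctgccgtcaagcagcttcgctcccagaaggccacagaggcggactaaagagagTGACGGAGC
Psmb5, chr14:54617996-54618245, minus strand: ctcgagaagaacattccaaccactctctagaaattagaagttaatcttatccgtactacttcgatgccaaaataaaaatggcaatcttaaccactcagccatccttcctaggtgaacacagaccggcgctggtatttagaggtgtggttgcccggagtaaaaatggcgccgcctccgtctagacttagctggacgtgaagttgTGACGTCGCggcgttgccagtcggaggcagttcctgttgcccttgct
Windows of 300 bases, from 250 before to 50 after a start, were at hand for 40 members in 44 windows. Psmc3, Psmb1, Psmb2, Psmb7, Psmd3, Psmd7 and Psmg2 had no window and were not searched. TGACNNNGC was in 13.6% of the member windows and in 12.4% of all 32841 windows, so the share was close to that of all genes. CCAAT was in 34.1% of member windows and 37.4% of all windows, and GGGCGG in 54.5% and 35.7%; both strands were searched and windows of 1 gene can overlap. The GC-box letters GGGCGG were in the windows of 23 of the 40 genes, among them Psma7, with 6 matches and no change called, and Psmd14 with 3.

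With palmitate, messages for the 19S particle were mostly a little higher, and of those for the core 6 were called higher and 2 lower. A call is an adjusted p under 0.05 in the edgeR quasi-likelihood test (two-sided, Benjamini-Hochberg over all 14987 tested genes). Of 46 tested members 23 were called higher, 3 lower and 20 not called, where 52.8% of all tested genes were called in either direction. That is 50.0% higher, against 27.4% of all tested genes, and 6.52% lower, against 25.4% of all tested genes. The members' median log2 fold change was 0.06, against 0.00 for all tested genes. The changes were small: members called higher differed by 1.04-fold to 1.33-fold, with a median of 1.14-fold, and the median called gene of the whole table differed 1.19-fold in either direction. Against a minimum fold of 1.2 (glmTreat) only 1 member, Psmc3, was called higher and 0 lower, where that test called 6.46% of all tested genes higher and 8.72% lower. All 3 palmitate libraries lay above all 3 vehicle libraries for 25 members and below them for 6, against 29.7% and 28.1% of all tested genes. In the authors' deposited table, 20 of 47 members had a positive log2 fold change with a q-value under 0.05 and 3 a negative one, against 13.3% and 10.9% of its 23399 genes. Those 23399 also hold the genes that failed the count filter here, so these shares are not on the footing of the 14987 tested genes.

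**Figure D1:**
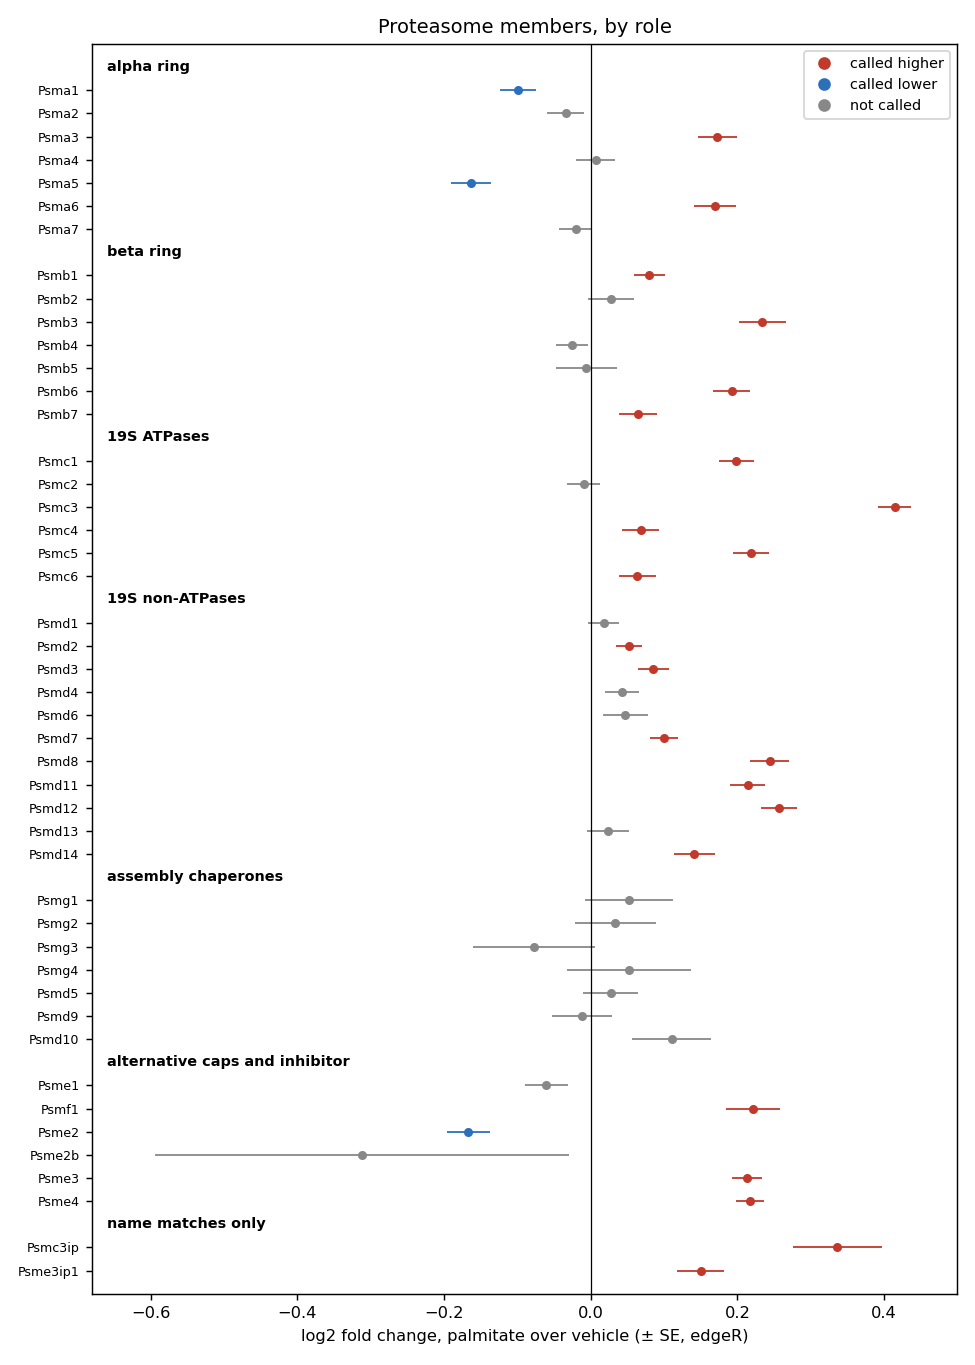
Log2 fold change of each tested member, palmitate over vehicle, with its standard error, grouped by role; red points were called higher, blue lower and grey not called (edgeR, 3 libraries per group). All 17 points of the 19S members but Psmc2 lie right of 0, whereas the alpha ring has 2 red and 2 blue points.

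The core and the regulatory particle were compared by summing the CPM of their member genes in each library. The 19S sum leaves out Sem1 and Adrm1, which sit in that particle under other names. The 19S genes summed to 2894, 2891 and 2899 CPM with palmitate, against 2682, 2657 and 2648 CPM with vehicle, so the groups did not overlap and the mean was 8.74% higher with palmitate. The core genes summed to 1676, 1669 and 1689 CPM with palmitate, against 1636, 1649 and 1625 CPM with vehicle. These sums did not overlap either, but the mean was only 2.51% higher. The ratio of core to 19S CPM was 0.579, 0.577 and 0.583 with palmitate, against 0.610, 0.621 and 0.614 with vehicle, lower in each palmitate library than in any vehicle library. Leaving Psmc3 out of the 19S sum, a choice made after seeing the data, gave a ratio of 0.621 ± 0.00265 with palmitate and 0.650 ± 0.00635 with vehicle (SD, n = 3 each), and the 19S fold was then 1.07. With every subunit given equal weight, the mean log2 CPM of the core minus that of the 19S particle was -0.49 with palmitate and -0.41 with vehicle. No p is given for these sums, since they are scores over chosen genes. Within the core, the alpha ring summed to 852 ± 4.23 CPM with palmitate and 854 ± 7.31 CPM with vehicle, and the beta ring to 826 ± 6.16 CPM with palmitate and 783 ± 5.10 CPM with vehicle (SD, n = 3 each). Within the 19S particle, the ATPases summed to 915 ± 6.77 CPM with palmitate and 816 ± 8.01 CPM with vehicle, and the other subunits to 1980 ± 7.88 CPM with palmitate and 1846 ± 14.7 CPM with vehicle (SD, n = 3 each).

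**Figure D2:**
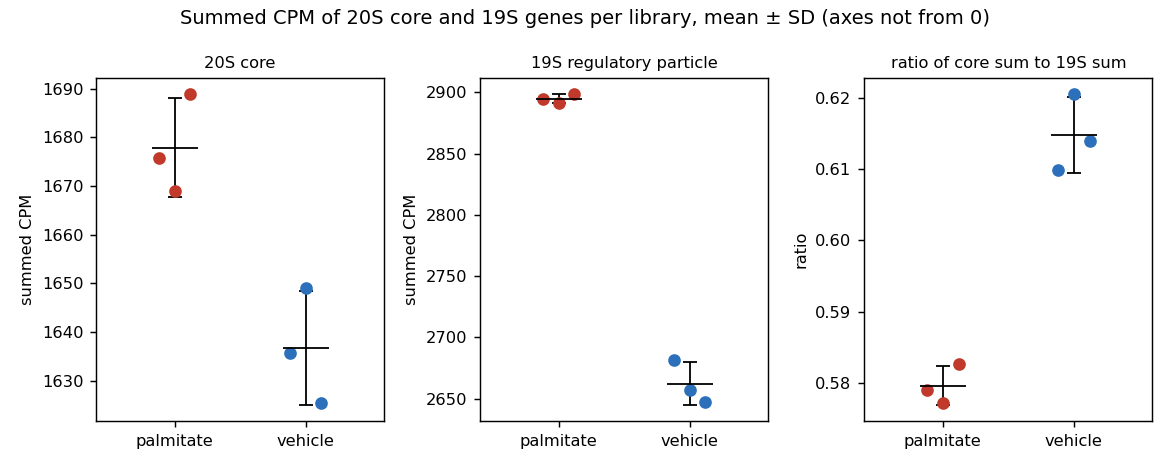
Summed CPM of the 20S core genes, of the 19S genes and their ratio, with 1 point per library, palmitate left of vehicle, and mean ± SD as bars; the axes do not start at 0. The ratio lies between 0.577 and 0.583 in palmitate libraries and between 0.610 and 0.621 in vehicle libraries.

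In the ATPase ring, which unfolds substrates and opens the gate, 5 of 6 genes were called higher, or 83.3%, and 0 lower. Of all tested genes 27.4% were called higher and 25.4% lower. DESeq2 called 3 of the 6 higher. Psmc3 (ENSMUSG00000002102.16) had the greatest rise of all members, with 190, 194 and 191 CPM with palmitate, against 143, 147 and 141 CPM with vehicle. The palmitate libraries all lay far above the vehicle libraries (log2 fold change 0.41, SE 0.0225, edgeR adjusted p = 3.33e-29). In an earlier annotation (Gencode M21) Psmc3 shares 215 exonic bases on the opposite strand with the zinc transporter gene Slc39a13, which averaged 46.8 CPM with palmitate and 30.4 CPM with vehicle (log2 fold change 0.62). The sources used here do not say if strand entered the counting, so reads of this pair may have been mixed, and the part of that in the Psmc3 result was not tested. Other members share exonic bases with a neighbour too. Psmb7 shares 405 on the opposite strand with Nek6 (log2 fold change -0.23), and Psmc3ip 385 with Mlx (0.08). The largest overlap was that of Psmd9, 1849 bases on the opposite strand with Gm26745. Overlaps on the same strand include 301 bases of Psmd1 with Gm21972, 280 of Psmg3 with Gm26938 and 109 of Psmb5 with Mir686. The part of these overlaps in the results was not tested either. Psmc5 and Psmc1, also ATPases, rose less than Psmc3. Psmc5 had 144, 151 and 145 CPM with palmitate, against 125, 125 and 128 CPM with vehicle, a log2 fold change of 0.22. Psmc1 had 152, 160 and 155 CPM with palmitate, against 136, 136 and 135 CPM with vehicle, a log2 fold change of 0.20. Both pairs of groups were well apart. Psmc4 (log2 fold change 0.07) and Psmc6 (0.06) were called by edgeR but not by DESeq2. The call of Psmc4 was also lost without palmitate replicate 1 or 3 or vehicle replicate 2 or 3, and that of Psmc6 without palmitate replicate 3 or vehicle replicate 3. Psmc2 was not called, with 164 ± 1.43 CPM with palmitate and 165 ± 3.36 CPM with vehicle (SD, n = 3 each).

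Among the other 19S genes, 7 of 11 were called higher and 0 lower. Over the 19S members this made 12 of 17 higher, or 70.6%, against 27.4% of all tested genes. Of the 17, 0 were lower by edgeR, limma-voom and DESeq2, also at an unadjusted p under 0.05, and DESeq2 called 9 higher. Sem1 and Adrm1, which sit in the 19S particle under other names, are not among the 17. Sem1 was called lower (log2 fold change -0.09, edgeR adjusted p = 0.00164) and Adrm1 (0.01) was not called. Psmd12 (ENSMUSG00000020720.14), a scaffold subunit of the lid, had 142, 138 and 144 CPM with palmitate, against 120, 117 and 119 CPM with vehicle. Every palmitate library was above every vehicle library (log2 fold change 0.26, SE 0.0248, edgeR adjusted p = 2.16e-15). Psmd8 and Psmd11 are also lid subunits. Psmd8 had 140, 139 and 135 CPM with palmitate, against 123, 115 and 113 CPM with vehicle, and Psmd11 had 171, 174 and 173 CPM with palmitate, against 148, 145 and 155 CPM with vehicle. Their log2 fold changes were 0.24 and 0.21, and neither overlapped between groups. Psmd14 (ENSMUSG00000026914.16), the metalloprotease that cuts ubiquitin chains off the substrate, had 109, 106 and 107 CPM with palmitate, against 96.1, 94.9 and 100.02 CPM with vehicle. Its groups did not overlap (log2 fold change 0.14, SE 0.0278, edgeR adjusted p = 1.04e-05). The rises of Psmd7 (0.10), the inactive partner of Psmd14, Psmd3 (0.08) and Psmd2 (0.05), a scaffold subunit, were smaller on the log2 scale. The call of Psmd2 was lost with DESeq2 and without vehicle replicate 2. The 4 genes not called were the scaffold gene Psmd1 (0.02), the ubiquitin receptor gene Psmd4 (0.04) and the lid genes Psmd6 (0.05) and Psmd13 (0.02), given as log2 fold changes with standard errors of 0.0212 to 0.0307. Psmd4 was called without palmitate replicate 2 or vehicle replicate 2.

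Of the 14 tested core genes 6 were called higher, or 42.9%, and 2 lower, or 14.3%, against 27.4% and 25.4% of all tested genes. The beta ring had 4 of 7 tested genes higher and 0 lower, also 0 lower by DESeq2, by limma-voom and at an unadjusted p under 0.05. Psmb3 (ENSMUSG00000069744.8), a structural beta subunit, had 80.9, 84.6 and 83.5 CPM with palmitate, against 73.8, 70.5 and 67.8 CPM with vehicle. The groups did not overlap (log2 fold change 0.23, SE 0.0322, edgeR adjusted p = 1.33e-09). Of the subunits with active sites, Psmb6 and Psmb7 were called higher and Psmb5 was not called. Psmb6 (ENSMUSG00000018286.7), the caspase-like subunit, had 130, 131 and 135 CPM with palmitate, against 115, 115 and 117 CPM with vehicle (log2 fold change 0.19, SE 0.0253, edgeR adjusted p = 3.67e-10). Psmb7 (ENSMUSG00000026750.7), the trypsin-like subunit, had 119, 114 and 114 CPM with palmitate, against 109, 111 and 112 CPM with vehicle. Its groups lay close but apart (log2 fold change 0.06, SE 0.0264, edgeR adjusted p = 0.0342), and its call was lost with DESeq2, after thinning to the shallowest library's total and without palmitate replicate 1, vehicle replicate 1 or vehicle replicate 2. Psmb5 (ENSMUSG00000022193.8), the chymotrypsin-like subunit that proteasome inhibitors bind, had 43.8, 43.6 and 40.8 CPM with palmitate, against 44.3, 43.8 and 40.8 CPM with vehicle. These groups overlapped throughout (log2 fold change -0.01, SE 0.0414, edgeR adjusted p = 0.917). Whether the responses of these subunits differ from one another was not tested. Psmb1, a structural subunit, rose slightly (0.08), and Psmb2 (0.03) and Psmb4 (-0.03) were not called.

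In the alpha ring 2 of 7 genes were higher, 2 lower and 3 not called. That is 28.6% in each direction, close to the 27.4% higher and 25.4% lower of all tested genes. Psma3 (ENSMUSG00000060073.10) had 112, 113 and 113 CPM with palmitate, against 99.3, 99.9 and 101 CPM with vehicle, and the groups did not overlap (log2 fold change 0.17, SE 0.0268, edgeR adjusted p = 4.72e-08). Psma6 went the same way, with 107, 101 and 109 CPM with palmitate, against 94.0, 95.1 and 92.8 CPM with vehicle. Psma5 (ENSMUSG00000068749.10) had 100.1, 97.8 and 101 CPM with palmitate, against 113, 112 and 110 CPM with vehicle. It was lower in every palmitate library (log2 fold change -0.16, SE 0.0271, edgeR adjusted p = 2.32e-07). Psma1 was lower too, with 130, 138 and 137 CPM with palmitate, against 147, 144 and 143 CPM with vehicle, a log2 fold change of -0.10. Psma2 (-0.03), Psma4 (0.01) and Psma7 (-0.02) were not called. Psma5 has a pseudogene row, and processed copies of proteasome genes can share reads.

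**Figure D3:**
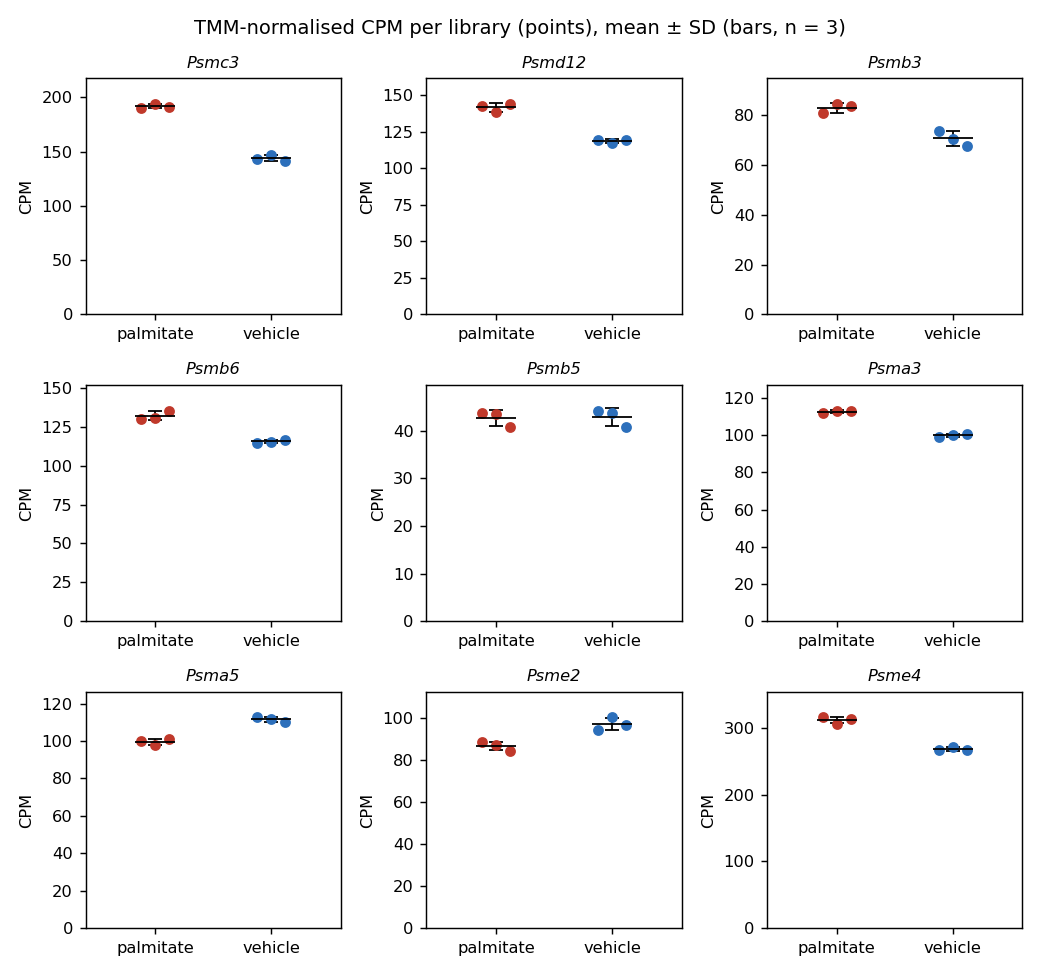
CPM of 9 members in each library (points), palmitate left of vehicle, with mean ± SD as bars and axes from 0. Psmc3 is at 190 to 194 CPM with palmitate and 141 to 147 CPM with vehicle, Psmb5 overlaps between the groups, and Psma5 and Psme2 are lower with palmitate.

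The chaperones that assemble the particles were not called in either direction, 0 of 7 by edgeR, DESeq2 or limma-voom, where edgeR called 52.8% of all tested genes in either direction. At an unadjusted p under 0.05, 1 was higher by edgeR. That was Psmd10, or gankyrin, a chaperone of the ATPase ring, with 24.3, 24.0 and 22.9 CPM with palmitate, against 22.6, 21.5 and 21.8 CPM with vehicle, groups that did not overlap (log2 fold change 0.11, SE 0.0536, edgeR adjusted p = 0.0761). It was called after thinning to the shallowest library's total and without palmitate replicate 3. The other chaperones of the regulatory particle, Psmd5 (0.03) and Psmd9 (-0.01), and the chaperones of the alpha ring, Psmg1 (0.05), Psmg2 (0.03), Psmg3 (-0.08) and Psmg4 (0.05), had log2 fold changes within about their standard errors, which were 0.0379 to 0.0841. Their summed level was 174 ± 1.59 CPM with palmitate and 171 ± 1.01 CPM with vehicle (SD, n = 3 each). A change of the size seen in the 19S particle would be close to the standard error for the low genes Psmg3 and Psmg4, at 9.17 ± 0.0960 and 9.47 ± 0.747 CPM with palmitate and 9.69 ± 0.720 and 9.12 ± 0.265 CPM with vehicle.

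Of the 6 genes of alternative caps and their relatives 3 were higher, or 50.0%, and 1 lower, or 16.7%, against 27.4% and 25.4% of all tested genes. Psme3 and Psme4, nuclear activators that bind the core without the 19S particle, rose. Psme4 (ENSMUSG00000040850.18) had 316, 307 and 314 CPM with palmitate, against 268, 272 and 267 CPM with vehicle, with no overlap (log2 fold change 0.22, SE 0.0190, edgeR adjusted p = 1.98e-17). Psme3 had 246, 254 and 251 CPM with palmitate, against 212, 215 and 221 CPM with vehicle, a log2 fold change of 0.21. Psmf1 (ENSMUSG00000032869.16), which encodes the inhibitor PI31, had 62.4, 62.2 and 64.0 CPM with palmitate, against 50.3, 57.1 and 53.9 CPM with vehicle (log2 fold change 0.22, SE 0.0368, edgeR adjusted p = 2.80e-07). Of the caps that interferon induces and that work in antigen processing, Psme2 fell and Psme1 was not called. Psme2 (ENSMUSG00000079197.11) had 88.7, 87.2 and 84.6 CPM with palmitate, against 94.6, 100.5 and 97.02 CPM with vehicle, lower in all palmitate libraries (log2 fold change -0.17, SE 0.0294, edgeR adjusted p = 9.39e-07). Its partner Psme1 (ENSMUSG00000022216.18) had 89.3, 89.6 and 88.4 CPM with palmitate, against 92.0, 96.1 and 90.6 CPM with vehicle. These groups did not overlap but the gene was not called (log2 fold change -0.06, SE 0.0293, edgeR adjusted p = 0.0731); it was the uncalled member with the smallest p and was called without vehicle replicate 3. The copy Psme2b was at 0.680 ± 0.0642 CPM with palmitate and 0.846 ± 0.0627 CPM with vehicle (SD, n = 3 each), and it and Psme2 can share reads.

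Both genes that match by name alone rose. Psmc3ip (ENSMUSG00000019303.15), which works in meiotic recombination and is no proteasome gene, had 22.5, 19.9 and 21.8 CPM with palmitate, against 18.4, 15.8 and 16.8 CPM with vehicle (log2 fold change 0.34, SE 0.0607, edgeR adjusted p = 1.73e-06). Psme3ip1, whose product binds that of Psme3, had 76.6, 79.5 and 76.6 CPM with palmitate, against 70.6, 69.7 and 69.5 CPM with vehicle. Without them 21 of 44 tested members were called higher, or 47.7%.

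Levels of different subunits were compared as CPM per kilobase of the longest coding transcript of Gencode M21. The 31 core and 19S genes spanned 39.6 to 175 CPM per kilobase with palmitate and 35.1 to 163 CPM per kilobase with vehicle. Within the core, and within the 19S particle, the products are built in at equal numbers. Psmd7 was highest on this scale, at 175 CPM per kilobase with palmitate and 163 with vehicle, and Psma3 and Psma2 were lowest. Psmb6 was at 166 CPM per kilobase with palmitate and 145 with vehicle, and Psmb5 at 47.5 with palmitate and 47.8 with vehicle. These ranks depend on the transcript length used. Over the median coding transcript instead of the longest, the vehicle level of Psmd2 was 567 CPM per kilobase and that of Psmd11 was 208, both above the 163 of Psmd7, and that of Psma3 was 116. Psma2 and Psmb5 stayed low over the median transcript, at 58.4 and 56.5 CPM per kilobase with vehicle, while Psmb6 kept its 145. The 7 chaperones were lower than all 31 subunits per kilobase of longest transcript, at 10.4 to 17.1 CPM per kilobase with palmitate and 10.97 to 16.4 with vehicle. Over the median transcript Psmd9 was at 57.4 CPM per kilobase with vehicle, above the 56.5 of Psmb5 and the 56.2 of Psmc6. The other chaperones were at 11.99 to 20.2 on that scale.

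**Figure D4:**
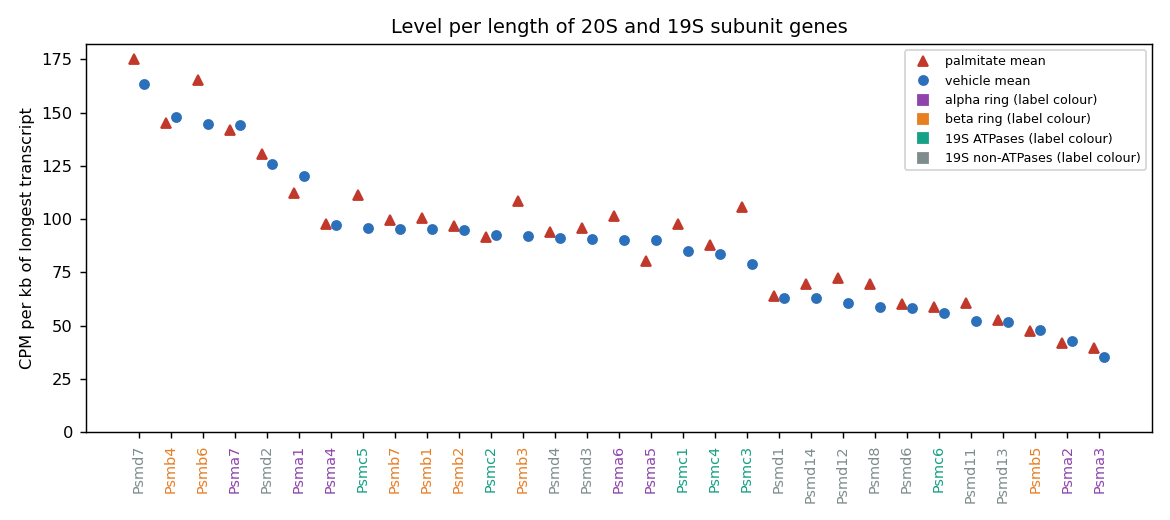
Mean CPM per kilobase of the longest coding transcript for the 31 core and 19S genes, ordered by the vehicle mean; triangles are palmitate and circles vehicle, and label colours give the class. Values run between 35.1 and 175, with Psmd7 highest and Psma3 lowest in both groups.

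Genes around the proteasome were given from lists of its partners. Among assembly, minor and associated factors, 2 of 12 tested genes were higher and 3 lower, or 16.7% and 25.0%, against 27.4% and 25.4% of all tested genes. Pomp, which guides the maturation of the core, was at 161 ± 1.501 CPM with palmitate and 151 ± 1.23 CPM with vehicle (SD, n = 3 each), or 0.09 higher on the log2 scale (edgeR adjusted p = 0.000339). Uchl5, a deubiquitinase docked on the 19S particle, fell to 26.8 ± 1.02 CPM with palmitate, against 34.3 ± 1.39 CPM with vehicle (SD, n = 3 each). Its log2 fold change was -0.36 (edgeR adjusted p = 5.63e-10), while its dock Adrm1 (0.01) and the other deubiquitinase Usp14 (-0.01) were not called. Zfand5, a stimulator of the proteasome, fell (-0.16), and so did the small 19S subunit Sem1 (-0.09). Prickle1, placed on this list but known as a gene of planar cell polarity, rose most of the list, by 0.57 on the log2 scale. These data do not show it to be a partner of the proteasome.

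Of 13 genes that control proteasome genes or the processing of NRF1, 4 were higher and 3 lower, or 30.8% and 23.1%, near the 27.4% and 25.4% of all tested genes. Nfe2l1 was at 223 ± 3.98 CPM with palmitate and 209 ± 0.649 CPM with vehicle (SD, n = 3 each), or 0.10 higher on the log2 scale (edgeR adjusted p = 3.50e-05). Nfe2l2, which makes the stress factor NRF2, was at 190 ± 2.50 CPM with palmitate and 167 ± 4.72 CPM with vehicle (SD, n = 3 each), or 0.19 higher on the log2 scale (edgeR adjusted p = 9.78e-12). Stat3, a cytokine signal factor, rose more, by 0.41 on the log2 scale. Of the enzymes that act on NRF1, the protease gene Ddi2 (0.02) was not called, and Ngly1, which removes its sugars, fell (-0.11), a call lost with DESeq2, without a filter, after thinning and without palmitate replicate 2 or vehicle replicate 3. Of the partners that retrotranslocate proteins from the endoplasmic reticulum, Sel1l rose (0.20) and Syvn1 fell (-0.20). Ogt, which adds a sugar to many nuclear proteins, fell (-0.24).

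Of 5 genes of ubiquitin and its activating enzymes, 1 was higher, Rps27a (0.09), against 27.4% of all tested genes, and 0 were lower by edgeR, also 0 at an unadjusted p under 0.05. Ubb was not called, at 268, 267 and 274 CPM with palmitate, against 232, 272 and 277 CPM with vehicle, and vehicle replicate 1 lay below the rest. Of 13 tested shuttles and partners of the segregase p97, 3 were higher and 2 lower, or 23.1% and 15.4%, against 27.4% and 25.4% of all tested genes. Nploc4 (0.18) and Nsfl1c (0.15) rose by small amounts on the log2 scale, as did Rad23b (0.05), whose groups overlapped and whose call was lost with DESeq2 and without palmitate replicate 2 or 3 or vehicle replicate 2. Npepl1 fell (-0.07), a call lost with DESeq2, without a filter, after thinning and without any of the palmitate libraries or vehicle replicate 1. Vcp, which encodes p97, was called lower by edgeR (-0.04, adjusted p = 0.0491), but not with DESeq2, the replicate block (adjusted p = 0.0601), no filter or thinning, nor without any one library except vehicle replicate 3.

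The left-out immunoproteasome subunits and the interferon list did not move one way. Psmb10 fell to 33.5 ± 0.856 CPM with palmitate, against 36.6 ± 0.864 CPM with vehicle (SD, n = 3 each), a log2 fold change of -0.13 (edgeR adjusted p = 0.00981), and its call was lost with DESeq2 and without palmitate replicate 3 or vehicle replicate 3. Psmb9 was not tested, with 12, 9 and 5 counts with palmitate and 3, 3 and 4 counts with vehicle. Of 8 genes of interferon response and antigen processing 4 were higher and 3 lower, or 50.0% and 37.5%, against 27.4% and 25.4% of all tested genes. The peptide transporter genes Tap1 and Tap2 rose, with 4.54 ± 0.371 and 12.5 ± 0.424 CPM with palmitate and 1.95 ± 0.563 and 6.75 ± 0.595 CPM with vehicle (SD, n = 3 each), and their log2 fold changes were 1.196 and 0.88. Their partner Tapbp fell (-0.30), as did the interferon regulator Irf1 (-0.21).

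**Figure D5:**
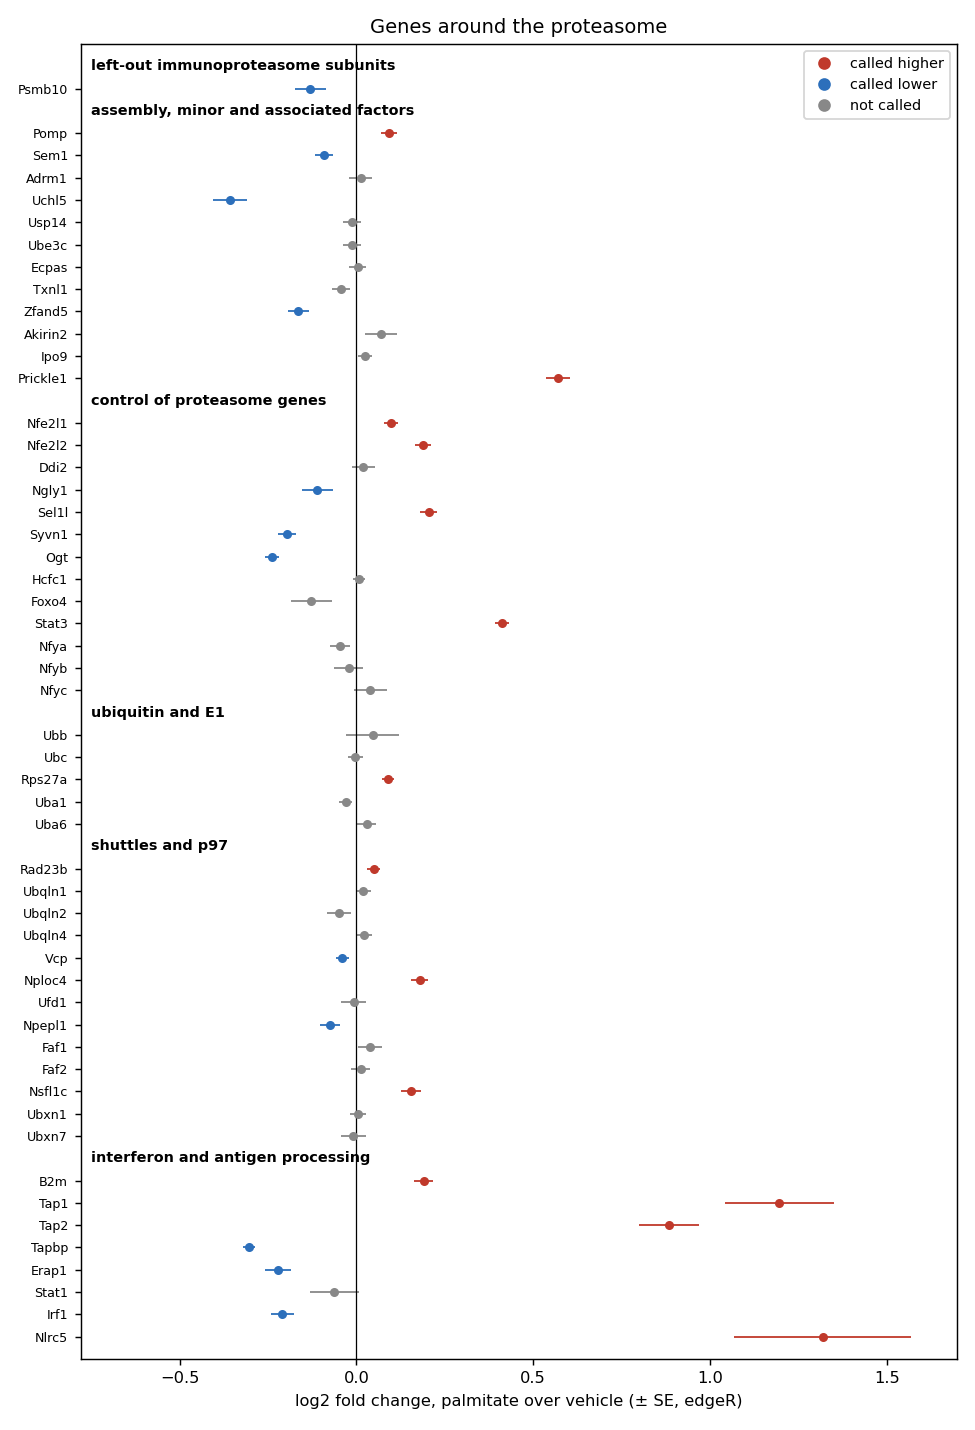
Log2 fold change with standard error of the tested genes around the proteasome, palmitate over vehicle, grouped by list; red points were called higher, blue lower and grey not called (edgeR, 3 libraries per group). Prickle1 at 0.57 and Uchl5 at -0.36 lie outermost in the list of assembly, minor and associated factors, and Tap1, Tap2 and Nlrc5 are the points near or beyond 0.88.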

How the data were processed

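Per the labels' protocols, a strand-marking kit for polyadenylated RNA gave the 6 libraries. The submitters' processing notes name STAR 2.6.1, FastQC 0.11.8, DESeq2 1.34.0, HTSeq and build mm39. The deposited count table holds raw counts per gene. The authors' deposited comparison table holds, per gene, log2 fold changes, q-values beside p-values, and a score, the signed −log10 of the p-value; its q-values and log2 fold changes were used.

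Groups came from the sample titles. The main test was the quasi-likelihood test of edgeR 4.0.16 (robust glmQLFit, TMM, filterByExpr with a minimum count of 10) over all 14987 genes that passed, with Benjamini-Hochberg adjustment at 0.05, under R 4.3.3. CPM values are TMM-normalised, and an SE is the log2 fold change over the root of the F statistic. Alternatives were median-of-ratios factors, no filter, DESeq2 1.42.0, limma-voom (limma 3.58.1), glmTreat at 1.2-fold, a replicate block, thinning to the shallowest library and leaving out each library. The fits were checked on simulated counts with far fewer changed genes than were called here. That is a check of the code and not of the results. Values in every library were given for Psmb5, Psmb6, Psmb7, Psmd14, the greatest called rise and fall of each role at 1 CPM or more, the uncalled member with the smallest p, and further members a comparison turned on; from each list around the proteasome up to 4 called genes were named by smallest p, beside Nfe2l1, Nfe2l2, Pomp and the left-out immunoproteasome subunits. Others named there were chosen after their values were seen. Some genes of these lists are not reported here. Members and lists were chosen with earlier results of these data known. Within groups, library pairs differed by more than counting noise (chi-square per degree of freedom at least 1.202), so none was taken as a repeat deposit; this does not show separate cultures. Figures used matplotlib 3.10.9.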

Additional observations from a re-analysis of the deposited data

How the results depend on the processing

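Median-of-ratios factors, limma-voom and the replicate block changed no member's call (outside the members, the block ended that of Vcp), with 23 members higher and 3 lower under each. The labels number the replicates without saying that they are paired, so the main test had no block. Same-numbered libraries did not deviate together (correlations of -0.00448, 0.00846 and 0.00715 over genes), and not every library correlated best with its own number. With the replicate block 7933 genes were called in all, against 7915 without it. Without any filter the counts were also 23 and 3. DESeq2 called 19 higher, losing Psmb7, Psmc4, Psmc6 and Psmd2. With glmTreat, 1 member, 0 core genes and 1 gene of the 19S particle were higher, and 0 members lower. Of 26 called members, 22 kept their call and sign under every alternative except glmTreat, which kept only Psmc3.

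Leaving out each library in turn gave 21 to 24 members higher, 3 to 4 lower, 5 to 6 core and 10 to 13 19S genes higher, and a median log2 fold change of 0.0582 to 0.0731. The 19S fold was 1.09 in the report and 1.08 to 1.09 with a library left out; it was 1.08 with median-of-ratios factors, 1.09 after thinning and 1.07 without Psmc3. The core to 19S ratio, palmitate minus vehicle, was -0.0376 to -0.0323 with a library left out and -0.0292 without Psmc3. Uncalled genes near 0 changed sign: Psma4 was at -0.0048 after thinning and -0.0120 to 0.0247 with a library left out, Psmb5 at 0.0034 without a filter and -0.0439 to 0.0292, Psmc2 at 6.82e-05 without a filter and -0.0272 to 0.00167, Psmg4 at -0.0084 to 0.10 and Psmd9 at -0.0337 to 0.0148, all on the log2 scale. Where a call was lost the cause was not tested. Few counts limit what can be said of Psmb11, Psmb9 and Psme2b.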
